A study of Mus musculus with 61 samples.

Results

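The deposited list of Sox2 binding positions from control cells holds 17681 positions (exact Poisson 95% interval 17421 to 17944, counting error only). All of its positions were used, with no selection by score. They are 17681 of the 52888 positions in the 3 Sox2 lists of the series, the other two coming from cells with a hairpin against Chaf1a. The list was called from 1 Sox2 immunoprecipitate (IP) against 1 input library, the unprecipitated chromatin of the same cells. There is therefore no replicate of this list, every value below describes these libraries, and no p-value is given. The depth of the libraries is unknown, so a place without a position may have been missed for lack of reads.

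The cells were mouse embryonic fibroblasts of strain Black6-129X1/SvJ, taken from embryos at embryonic day 13.5. They carried Col1a1::tetOP-OKSM and R26-M2rtTA, that is, a doxycycline-driven cassette of the reprogramming factors Oct4, Klf4, Sox2 and Myc at Col1a1 and the transactivator that switches it on at Rosa26. Doxycycline was given at 2 µg/ml in serum and LIF medium with ascorbate, and chromatin was taken at day 3. The control hairpin targets Renilla luciferase, which mouse cells lack, and the cassette, the transactivator and doxycycline are shared by all 3 lists. Sox2 was precipitated with goat polyclonal antibody AF2018, and the labels do not separate Sox2 made from the cassette from Sox2 made from the cells' own gene.

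Sox2 is a transcription factor of the SRY-related HMG-box family that bends DNA at short sites with a core of the letters CATTGT or close variants. In pluripotent cells it binds many enhancers beside the POU-domain factor Oct4, whose site is the octamer ATGCAAAT, often with both half-sites next to each other. Early in reprogramming the induced factors meet fibroblast chromatin, and much of their binding lies away from promoters.

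The sequences below are shown because they belong to the promoters with some of the best-scored Sox2 positions, and because the letters of these half-sites can be read in them. They are RefSeq promoter windows of assembly GRCm38.p6, from 250 bases before to 50 after the start of the gene, 5′ to 3′ on the strand of the gene. Capitals mark matches on either strand to the half-site CATTGT, its neighbour ATTGTT (which shares 5 letters with it), the further variant CTTTGT and the octamer ATGCAAAT. They also mark a joined form, ATTGT and any 1 letter followed at once by the octamer. The Nrarp window is chr2:25180508-25180807 (plus strand), Pipox chr11:77893823-77894122 (minus), Mobp chr9:120149492-120149791 (plus), Pde12 chr14:26669797-26670096 (minus) and Tek chr4:94739039-94739338 (plus).
Nrarp: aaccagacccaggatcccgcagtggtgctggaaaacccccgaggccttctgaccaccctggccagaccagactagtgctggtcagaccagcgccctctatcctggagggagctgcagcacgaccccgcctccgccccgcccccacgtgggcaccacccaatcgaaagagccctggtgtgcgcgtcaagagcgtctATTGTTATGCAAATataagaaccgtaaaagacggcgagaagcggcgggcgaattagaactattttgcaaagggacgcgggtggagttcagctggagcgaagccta
Pipox: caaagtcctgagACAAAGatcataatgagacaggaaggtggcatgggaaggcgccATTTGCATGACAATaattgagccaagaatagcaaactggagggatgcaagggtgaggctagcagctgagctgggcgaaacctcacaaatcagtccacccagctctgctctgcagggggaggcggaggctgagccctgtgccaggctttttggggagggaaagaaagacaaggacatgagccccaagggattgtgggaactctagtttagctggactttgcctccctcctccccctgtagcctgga
Mobp: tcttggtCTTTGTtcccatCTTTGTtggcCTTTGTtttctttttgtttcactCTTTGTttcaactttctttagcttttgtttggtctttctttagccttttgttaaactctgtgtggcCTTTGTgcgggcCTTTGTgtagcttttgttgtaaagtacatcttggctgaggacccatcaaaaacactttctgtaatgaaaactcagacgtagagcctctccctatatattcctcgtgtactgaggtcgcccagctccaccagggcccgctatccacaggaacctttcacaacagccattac
Pde12: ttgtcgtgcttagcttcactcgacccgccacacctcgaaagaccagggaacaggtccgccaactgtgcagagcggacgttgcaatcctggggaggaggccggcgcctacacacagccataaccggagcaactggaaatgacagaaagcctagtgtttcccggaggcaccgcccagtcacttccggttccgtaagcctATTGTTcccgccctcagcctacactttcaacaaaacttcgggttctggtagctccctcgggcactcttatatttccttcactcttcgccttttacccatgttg
Tek: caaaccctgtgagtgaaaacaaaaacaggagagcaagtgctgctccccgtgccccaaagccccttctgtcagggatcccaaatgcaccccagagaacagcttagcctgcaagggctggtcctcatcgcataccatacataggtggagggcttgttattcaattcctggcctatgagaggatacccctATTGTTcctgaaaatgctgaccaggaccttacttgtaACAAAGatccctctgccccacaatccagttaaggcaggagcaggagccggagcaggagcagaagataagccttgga

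Nrarp, a target gene of Notch signalling whose product dampens it, had the best-scored position of any promoter. Its Sox2 position, on mm9 chromosome 2 at 25036201, lay 76 bp before the listed start site with a score of 300.0 and an enrichment of 68.5. In the RefSeq window ATTGTT starts 55 bp before the start and ATGCAAAT directly follows it at 49 bp. Pipox, which encodes a peroxisomal oxidase of pipecolic acid, had its position 195 bp before the start with a score of 172.4 and an enrichment of 27.1. On the reverse strand its window holds the joined half-sites with another letter at the free place, and this match also starts at 195 bp before the start. Among 3143 windows searched, the joined form was present in 2, those of Nrarp and Pipox, and both have a Sox2 position. The joined form was searched after the Nrarp sequence had been seen. The comparison of offsets takes the RefSeq start and the start listed in mm9 as the same place, which was not tested.

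Mobp, a gene of the myelin sheath, had a score of 107.8 and an enrichment of 33.2 at 176 bp before its start. Its window holds none of the 3 motifs chosen for the search, but it holds CTTTGT 6 times, all on the strand of the gene, starting between 243 and 120 bp before the start. It is the only one of the 3143 windows with 4 or more matches of CTTTGT, a motif that was added after its sequence had been seen. In Pde12, a mitochondrial RNA-processing enzyme, the position lay 35 bp before the start with a score of 72.8, and ATTGTT starts at 53 bp before the start. In Tek, the angiopoietin receptor of endothelial cells, the position lay 83 bp before the start with a score of 72.2, and ATTGTT starts at 63 bp before it. In each of these windows with a match of the chosen motifs, the letters thus lay close to the authors' position.

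Over all genes with 1 listed start site and 1 RefSeq window, 164 of 3143 windows (5.22%) held a Sox2 position. CATTGT was present in 31 of these 164 (18.9%, exact Clopper-Pearson 95% interval 13.2 to 25.7%, counting error only) and in 6.78% of all windows. ATTGTT, which overlaps CATTGT by 5 letters, was also in 31 (18.9%) against 5.15% of all windows, and ATGCAAAT in 12 (7.32%, 3.84 to 12.4%) against 2.16%. At least 1 of these 3 motifs was in 58 of the 164 windows (35.4%) and in 11.7% of all. In those 58 windows the middle of the nearest match lay at a median of 29 bp from the Sox2 position, and within 50 bp in 39. CTTTGT was in 46 of the 164 windows (28.0%) and in 13.2% of all. The windows with a position were also poorer in G and C, with a median of 57.0% against 62.0%, and the part of base composition in these shares was not tested. The other 106 windows with a position held none of the 3 motifs, which says nothing about Sox2 there.

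Each position has a score and an enrichment, the ratio of IP to input, both given by the authors and used here only within this list. The score ranged from 13.3 to 400.1 with a median of 21.7, an interquartile range of 16.3 to 33.2, a 90th percentile of 53.5 and a 99th percentile of 130.8. Most positions were thus close to the lower end, and 401 (2.27%) scored over 100. The best 10% of positions, 1768 in number, carried 29.0% of the summed score, and the best 1% carried 5.92%. The false discovery rate (q-value) of the authors was at most 0.000545 for every position. The E-value, on a scale of 1 to 10 in the list, was 1 for 10321 positions (58.4%). At the lower threshold the 3 lowest-scored positions were nearest to Ttyh3, Atp6v1b2 and Cnn3, all with a score of 13.3. What the caller left out below that score is not in the list.

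Enrichment ranked the positions differently from the score. It ranged from 0.382 to 482.2 with a median of 8.23 and an interquartile range of 4.96 to 14.9. Across positions of this list the Spearman correlation of score and enrichment was 0.487, and only 10 positions were among both the 100 best scores and the 100 highest enrichments. The authors' lower bound of the enrichment had a median of 2.66, and for 1476 positions (8.35%) it was below 1. The highest enrichments also fell on discrete steps: 98 of the 100 highest were odd multiples of 1.15, a spacing of 2.29, within a tolerance of 0.001 of a step. Of all positions 5430 (30.7%) lay on these steps, with a median score of 21.7 against 21.8 for the others, and of the 100 best scores 34 did.

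**Figure D1:**
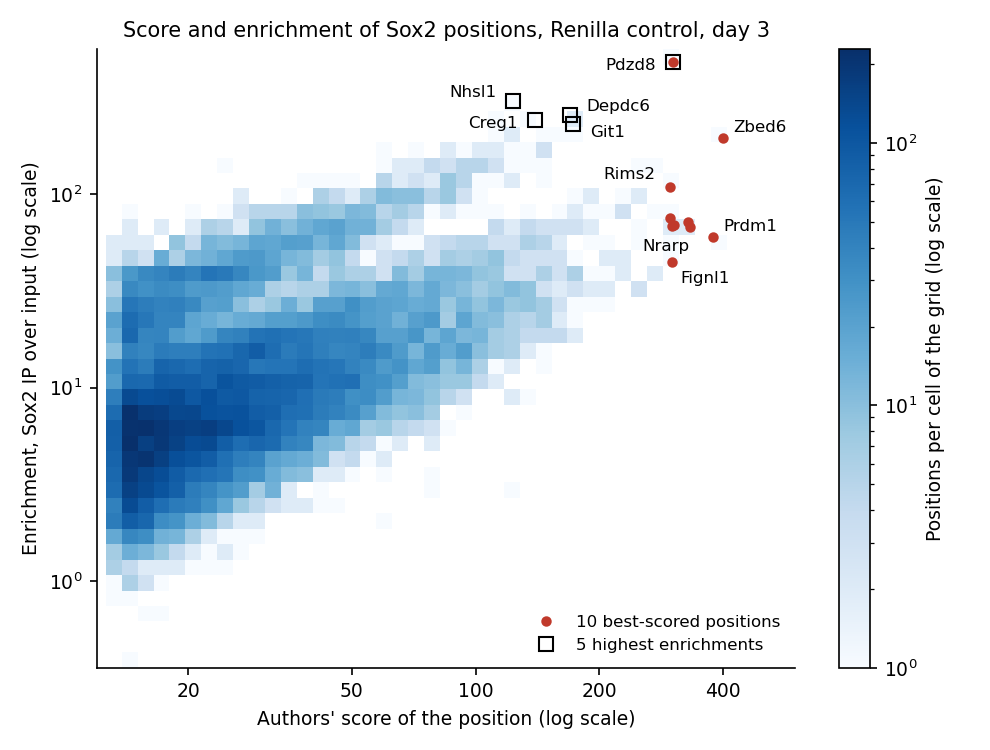
Score of each Sox2 position (x axis, log scale) against its enrichment of IP over input (y axis, log scale), for all 17681 positions of the control list. Colour gives the number of positions per grid cell on a log scale, red points are the 10 best scores and open squares the 5 highest enrichments, with the nearest listed gene named for some; only the position near Pdzd8 is in both sets, and the mass of the list lies near the median score of 21.7 and enrichment of 8.23.

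The best-scored positions lay mostly far from listed genes. Listed elements are those of mouse embryonic stem (ES) cells in the Sono-seq table of the series, 5513 start sites and 14265 enhancers, and the nearest gene is the nearest among its 5154 genes. The top position, on chromosome 1 at 135294434, had a score of 400.1 and an enrichment of 195.1 and lay 263028 bp from the start of Zbed6. The next, on chromosome 10 at 44436599, scored 377.8 at 258106 bp from Prdm1, which encodes the repressor Blimp1 of germ cells and plasma cells. Those on chromosome 2 at 145888527 (333.5, nearest Naa20), chromosome 4 at 57503060 (329.3, nearest the phosphatase gene Ptpn3) and chromosome 9 at 60278051 (303.9, nearest Uaca) were 159551, 188351 and 364303 bp from a start site. None of these 5 had another position within 10 kb.

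Of the other positions in the top 10, Nrarp was the only one at a promoter. The position nearest to Pdzd8, on chromosome 19 at 59937946, scored 302.6 and had the highest enrichment of the list, 482.2, with a lower bound of 92.3. The position nearest to Fignl1, on chromosome 11 at 11781987, scored 300.3 and lay 1887 bp from an enhancer assigned to Fignl1 and Grb10, an adaptor that restrains insulin and growth factor signalling. The position nearest to Rims2, a presynaptic protein gene, scored 297.0 and lay 141 bp from an enhancer assigned to Rims2 although the start site was 448464 bp away. The position nearest to Cxadr, an adhesion receptor of epithelial cells, scored 296.9 at 36313 bp.

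Distance from listed elements was as common among the best positions as in the whole list. Of the 100 best scores 68 lay over 50 kb from a start site and over 10 kb from an enhancer, against 70.0% of all positions. Of these 100 positions 2 were within 500 bp of an enhancer, against 2.61% of all, 13 within 10 kb of a start site, against 9.38%, and 6 within 1 kb, against 3.00%. Each of the 20 best-scored positions had a counterpart within 200 bp in both Chaf1a lists, as had 99.9% of the 1768 best-scored positions.

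By enrichment the leading positions were others. After Pdzd8 came positions nearest to Nhsl1 (303.5), Depdc6 (257.7), Creg1 (241.7) and Git1 (230.2), with scores between 123.2 and 172.9. The 5 lowest enrichments, from 0.382 to 0.818, were nearest to Cryl1, Cdk1, Rpl5, Irf2bp2 and Fam164a, with scores between 13.4 and 16.9. In all there were 14 positions whose point estimate was below 1, that is, with less IP than input signal as the authors scaled them.

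Positions occurred on all 19 autosomes and on X, and X stood apart. Between the first and the last position of each chromosome the list covered 2556 Mb at 6.92 positions per Mb. Autosomes ranged from 6.25 per Mb on chromosome 14 to 9.71 on chromosome 19, with chromosome 11 at 9.36. X held 313 positions (1.77%), or 1.95 per Mb. It also held fewer listed start sites, 0.867 per Mb against 1.51 to 4.61 on the autosomes. At listed elements X was closer to the autosomes, though its shares rest on few regions with a position. Of its 162 enhancers 2.47% had a position within 500 bp, against 3.21% of autosomal ones. Of its 139 promoters 4.32% did, against 7.7%. The median gap on X was 136445 bp, and 16% of its positions had a neighbour within 10 kb, against 28.8 to 38.7% on the autosomes. The longest stretches without a position were on X as well, at 10.6 and 10.2 Mb.

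The positions that were called on X had a median score of 21.1 against 21.8 on the autosomes. Their median enrichment was 13.4 (interquartile range 7.1 to 28.6) against 8.02 (4.96 to 14.9), and 45.7% of them lay on the discrete enrichment steps against 30.4%. A similar share of them, 60.1% against 62.3%, had a counterpart in both Chaf1a lists. The Renilla Sono-seq value, a deposited score of the DNA that sonication frees from cross-linked chromatin, was lower on X. Its median was 0.0771 at the 162 listed enhancers on X against 0.137 at autosomal ones, and 0.0844 against 0.143 at promoters. The part of this lower level in the density of positions on X was not tested, and the number of X copies per cell was not examined.

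**Figure D2:**
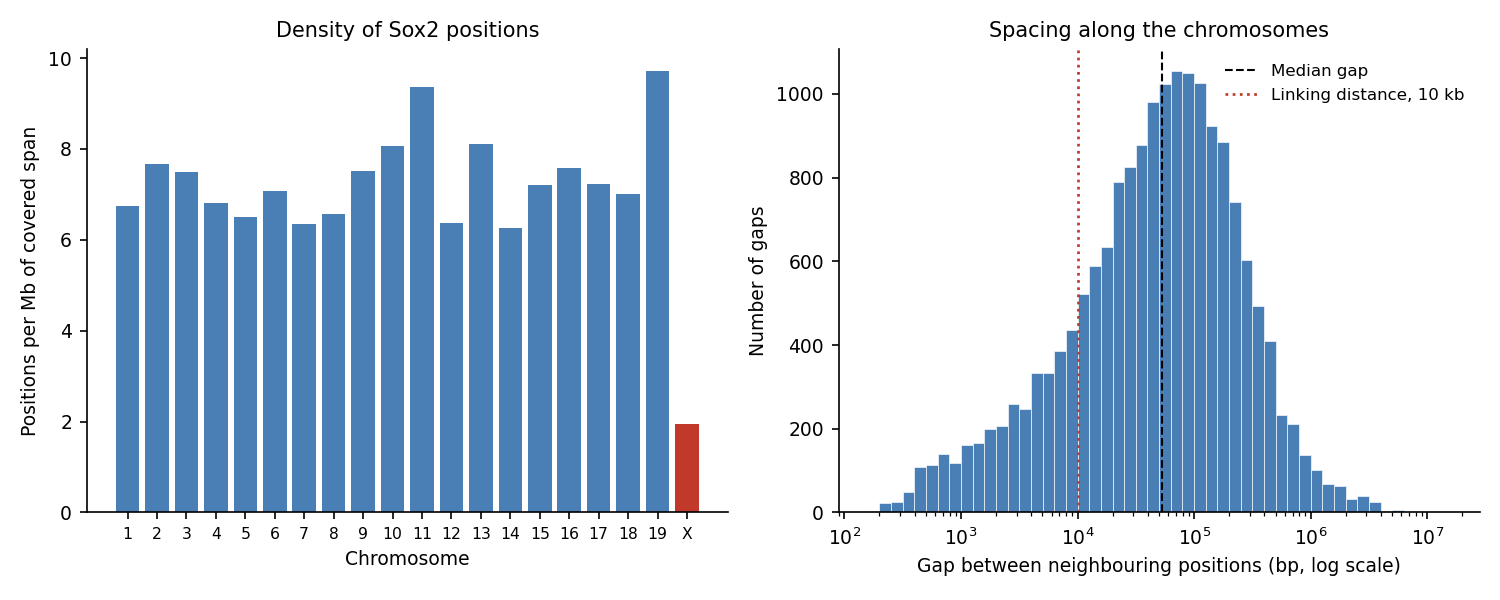
Left, Sox2 positions per Mb on each chromosome (bars), counted between the first and last position; X, in red, stands at 1.95 per Mb, below every autosome (6.25 to 9.71). Right, number of gaps between neighbouring positions against gap length (log axis), with the median of 53499 bp (dashed) and the 10 kb linking distance (dotted).

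Most positions had no neighbour within 10 kb, although 70.1% had one within 50 kb. The 17661 gaps between neighbours on a chromosome had a median of 53499 bp and a mean of 144706 bp, and 10% were at most 3821 bp. The shortest gap was 194 bp, and 6 gaps were at most 200 bp. Gaps of up to 1 kb numbered 579 (3.28%) and gaps of up to 10 kb 3308 (18.7%). A neighbour within 10 kb was found for 5810 positions (32.9%). Chaining positions whose gaps were at most 10 kb gave 14373 groups, of which 11871 were single positions and 577 were clusters of 3 or more, with 1960 positions (11.1%). This was found with all scores, and with the 8841 positions at or above the median score 115 clusters of 3 or more were found.

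Close neighbours did not share a level. For pairs up to 1 kb apart the Spearman correlation of their scores was 0.0245 over 579 pairs, and for pairs over 100 kb apart it was -0.00505. The median ratio of the higher to the lower score was 1.56 in the close pairs and 1.54 in the distant ones. Clustered positions also had scores like those of single ones, with medians of 22.4 in clusters of 3 or more and 21.6 for singles. Of positions in clusters of 3 or more 13.8% were within 10 kb of a start site (11.7% in clusters of 3 and 17.7% in those of 4 or more), against 8.36% of single positions.

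The largest cluster held 10 positions in chr6:52108278-52140881 (mm9), with scores from 15.3 to 41.2. Its nearest listed start site was that of Skap2, at 145730 bp. A cluster of 8 in chr4:29009961-29029369 was 3981111 bp from its nearest listed gene, Ankrd6, and had the highest median score of the 5 largest clusters, 51.8, with a best score of 81.5. Another cluster of 8, in chr2:117693423-117717669, lay 587763 bp from Srp14, with a median score of 27.7. A cluster of 7 lay over the start of Dpysl3, which encodes a cytoskeletal protein of growing neurites, and another of 7 in chr12:16843292-16882217 was 19566 bp from Rock2, a kinase of actomyosin contraction. Of these 5 clusters none had a listed enhancer within 10 kb, while 17.5% of all positions had one. Within 500 bp of an enhancer lay 4.57% of positions in clusters of 4 or more. The share was 2.46% in clusters of 3 and 2.32% for single positions.

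At the scale of 1 Mb the list was uneven. Of 2576 windows of 1 Mb 336 held no position, and the 258 fullest windows held 26.8% of all positions. The fullest, from 41 to 42 Mb on chromosome 9, held 35 positions and 1 listed start site, that of Sorl1. Windows with a listed start site held a median of 9 positions and those without a median of 2. Across windows the Spearman correlation of the number of positions with the number of start sites was 0.507; windows of 1 chromosome are not independent, so it is only a description.

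Start sites had the highest density of positions, although few positions were there. Within 500 bp of a start site lay 377 positions (2.13%), or 75.9 per Mb of such sequence. The density was 32.4 per Mb from 500 to 1000 bp, 22.1 from 1 to 2 kb, 14.0 from 2 to 5 kb, 12.7 from 5 to 10 kb, 11.3 from 10 to 50 kb and 7.43 from 100 to 500 kb. In all, 1658 positions (9.38%, interval 8.95 to 9.82%) lay within 10 kb of a start site and 4617 (26.1%) within 50 kb, and the median distance was 178551 bp. Around ES cell enhancers the rise was lower and broader, with 461 positions (2.61%) and 32.3 per Mb within 500 bp, 24.4 from 500 to 1000 bp and 18.1 from 1 to 2 kb. No position lay within 500 bp of both kinds of element, and of the enhancers only 6 are within 1 kb of a start site. Within 10 kb of neither were 13938 positions (78.8%). Genes and enhancers that the table does not list were not used here, so these shares are those of the listed elements.

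Positions at promoters lay before the start rather than after it. For the 4320 start sites whose strand was known, 235 positions were within 500 bp upstream and 73 downstream, that is, 76.3% upstream (71.1 to 80.9%). In steps of 250 bp, 182 positions fell in the 250 bp before the start, 53 in the 250 bp before that and 50 in the 250 bp after it. Within 10 kb the sides were nearly even, with 52.0% upstream (49.3 to 54.8%). Around enhancers, whose coordinates have no strand, the counts were 132 and 128 in the 250 bp on either side.

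**Figure D3:**
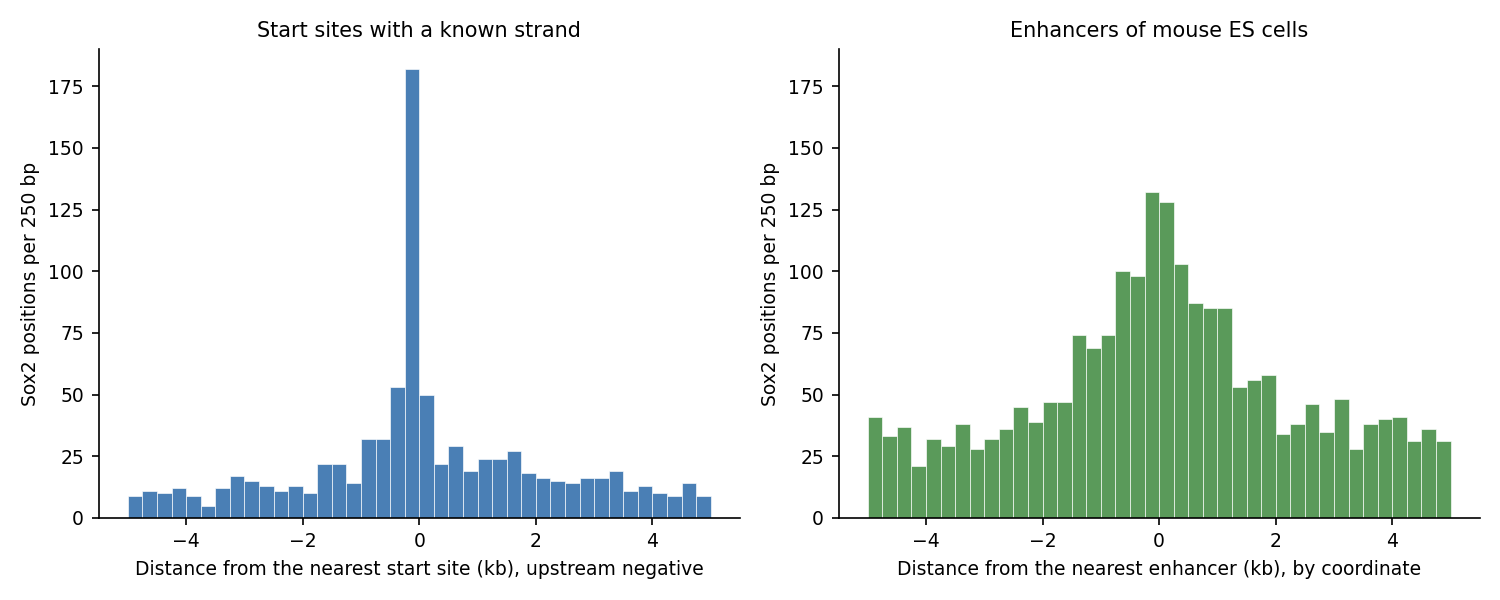
Number of Sox2 positions per 250 bp (bars) by distance in kb from the nearest start site, upstream negative (left), and from the nearest ES cell enhancer, by coordinate (right). The left peak is narrow and lies before the start (182 positions in the first 250 bp upstream and 50 downstream), and the right peak is broader and even (132 and 128).

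Scores were lowest in the bands next to the start. The median score was 18.3 within 500 bp of a start site, 19.6 from 500 to 1000 bp and 20.5 from 1 to 2 kb. It was highest from 2 to 5 kb, at 23.1, then 20.8 from 5 to 10 kb, and between 21.5 and 22.3 in the bands farther out. The median enrichment was 7.25 within 500 bp, 8.02 from 2 to 5 kb and 8.48 beyond 500 kb. Between positions within 1 kb of a start site and those beyond 50 kb the difference in median enrichment, the former minus the latter, was -1.09. Near enhancers the score was instead slightly above that of the list, with a median of 23.4 within 500 bp. The share within 1 kb of a start site was 4.52% among the 10% of positions with the lowest scores and 1.41% among the 10% with the highest, although it was 6 of the 100 best, while the share within 500 bp of an enhancer was 2.37% and 3.11%. A counterpart within 200 bp in both Chaf1a lists was found for 17.6% of the former and 99.9% of the latter. That share was 54.6% within 500 bp of a start site and 69.6% within 500 bp of an enhancer.

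**Figure D4:**
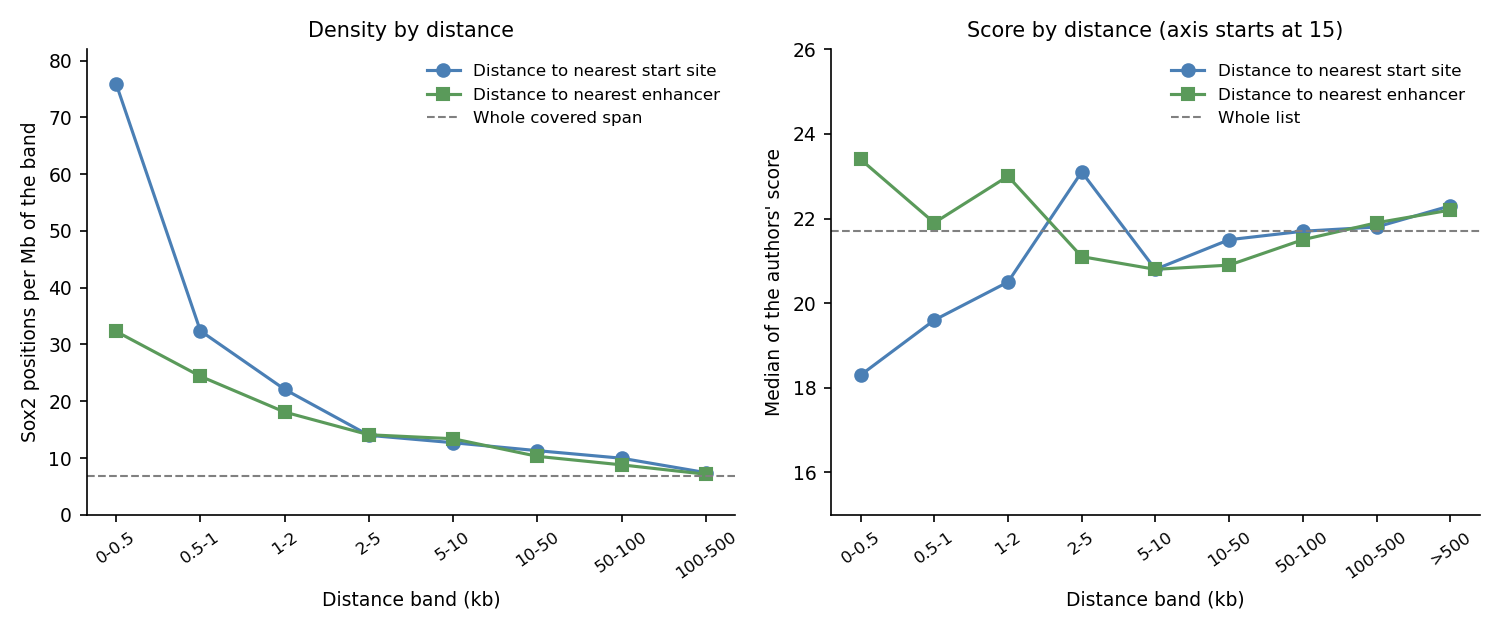
Left, Sox2 positions per Mb of each distance band around listed start sites (circles) and enhancers (squares); the dashed line is the 6.92 per Mb of the whole covered span. Right, the median score in the same bands on an axis that starts at 15, with the median of the list (21.7) dashed; within 500 bp it is 18.3 at start sites and 23.4 at enhancers.

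Among the 5154 listed genes, 1509 (29.3%) had a position within 10 kb of a start site and 3427 (66.5%) within 50 kb. These shares are the background for the genes below, and 29.1% of start sites and 27.9% of enhancers had a position within 10 kb. Within 10 kb 1173 genes had 1 position and 336 (6.52%) had 2 or more, and within 50 kb 202 genes (3.92%) had 5 or more.

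After Nrarp, the gene with the best-scored position within 10 kb was Otud7b, which encodes a deubiquitinase, with 231.1 at 520 bp and 3 further positions. Next were Spc24, a subunit of the kinetochore (199.0 at 8284 bp), and Socs3, the feedback inhibitor of LIF and Stat3 signalling (185.3 at 6265 bp). Mtf2, a Polycomb-like partner of the H3K27 methyltransferase complex, had 177.3 at 161 bp and an enrichment of 189.0, and this was its only position within 50 kb. Dido1, whose product reads methylated histone H3, had 174.0 at 782 bp, a position shared with 2310003C23Rik at 3328 bp. Adipor2, a receptor of adiponectin, had 173.4 at 1548 bp, Pipox 172.4 at 195 bp and Manbal 170.0 at 8986 bp. All of these positions had counterparts in both Chaf1a lists, as had 99.9% of the 10% of positions with the highest scores. Within 50 kb the leading positions were those of Nrarp, Cxadr and Klf13, and then one with a score of 236.8 at 11549 bp from Rb1, the retinoblastoma cell cycle gene.

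By number of positions within 10 kb Dpysl3 came first. It had 5, all of modest score (best 38.1, at 1541 bp). Those with 4 included Otud7b, Avpi1 (best 82.2), the thioesterase gene Acot7 (104.0), the BMP target Id3 (74.6), the MAPK inhibitor gene Spred2 (87.6), the calponin gene Cnn3 (66.2), Tmem55a (50.2) and Lpar6 (36.8). Hist1h4j, a histone H4 gene, also had 4, the best with a score of 47.6. Within 50 kb the histone cluster of chromosome 13 led, with 11 positions each at Hist1h2bh, Hist1h3f, Hist1h4f and Hist1h3g. The best scored 48.2, except at Hist1h3g, where the best scored 37.1. These genes lie close together and share most of their positions. Histone genes also have near-identical copies, so how reads were divided among the copies is uncertain. Hspa8, a constitutive heat shock protein gene, and its neighbour LOC624853 had 10, and Socs3, Septin11, the nuclear long noncoding RNA gene Neat1 and Dpysl3 had 9 each. At Socs3 the summed score of its 9 positions was 366.9, against 200.9 at Neat1.

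Pluripotency genes with a position included Fgf4, Nanog and Pou5f1, while some well-known members had none. Of 48 listed genes 36 were in the table and 13 of these (36.1%) had a position within 10 kb, against 29.3% of all genes, and 20 (55.6%) had one within 50 kb, against 66.5%. The best was at Fgf4, a growth factor gene with a classical Sox2 and Oct4 enhancer, with 128.3 at 3023 bp, and Rif1, a regulator of replication timing, followed with 110.1 at 586 bp. Gdf3 had 74.1 at 1449 bp, Trim28 71.5 at 9759 bp, L1td1 41 at 1485 bp and Tdh 40.6 at 8608 bp. Of the core factor genes Nanog had 26.6 at 4488 bp with an enrichment of 9.98, both above the medians of the list. Pou5f1, which encodes Oct4, had 19.1 at 1959 bp with an enrichment of 2.16, both below them. Fbxo15, Trp53inp1, Klf2, Lin28b and Upp1 scored between 22.3 and 32.8. For Klf5, Nr5a2, Jarid2, Tet1, Tet2, Mycn and Spp1 the nearest position was between 10 and 50 kb away. Sox2 itself, Klf4, Tbx3, Tcfcp2l1, Zfp42, Dppa2, Dppa4, Dppa5a, Sall4, Sall1, Lin28a, Tdgf1, Utf1, Dnmt3l and Nodal were among those with none within 50 kb.

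The table, being one of ES cell elements, lists few fibroblast genes, and that list is hardly measured here. Of 36 fibroblast and mesenchymal genes 5 were in it, and all 5 had a position within 10 kb, against 29.3% of all genes. They were Ctgf (67.9 at 4706 bp) and Cyr61 (47.2 at 1561 bp), matricellular targets of Yap and Tead, the fibronectin gene Fn1 (33.7 at 7023 bp), the matrix glycoprotein gene Sparc (22.2 at 3957 bp) and Tead1 (17.8 at 5680 bp). Cyr61 had 8 positions within 50 kb and Tead1 had 6. Of 11 epithelial genes 4 (36.4%) had a position within 10 kb, against 29.3% of all genes. Among these 4 were the tight junction gene Cldn4 (47.4 at 3909 bp), the desmosome gene Pkp2 (24.0 at 2210 bp) and the E-cadherin gene Cdh1 (16.8 at 3622 bp). Epcam, Tjp1, St14 and Ctnna1 had one between 10 and 50 kb, and Cldn6, Esrp1 and Esrp2 had none within 50 kb. In all, 8 of the 11 (72.7%) had one within 50 kb, against 66.5% of all genes.

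Signalling lists are of 10 to 19 genes, and their shares are to be read beside the 29.3% of all genes. For Notch it was 6 of 10 within 10 kb (60.0%) and 9 of 10 within 50 kb. At the receptor genes, Notch1 had 119.9 at 361 bp and Notch2 53.2 at 786 bp. The ligand gene Jag1 had 50.9 at 254 bp, and the feedback gene Nrarp is described above. Of FGF and MAPK genes 8 of 15 (53.3%) had one, led by the ligand gene Fgf4 and the inhibitor genes Spred2, Spry4 (49.1 at 240 bp) and the exchange factor gene Sos1 (38.9 at 9977 bp). Of Wnt genes 8 of 16 (50.0%) did, with the receptor genes Fzd7 (75.4 at 3063 bp) and Fzd5 (31.3 at 4040 bp), the beta-catenin gene Ctnnb1 (28.2 at 2291 bp) and the repressor gene Tcf7l1 (95 at 1382 bp). LIF and Stat3 genes had 6 of 13 (46.2%), with Socs3 far above Pim1 (43.0), Jak1 (21.2) and Socs1 (15), and the ligand gene Lif and the receptor genes Lifr and Il6st had none within 10 kb. TGF-beta and BMP genes had 6 of 19 (31.6%), led by the target genes Id3 (74.6) and Id1 (40.8), the ligand gene Gdf3 (74.1) and the inhibitory Smad gene Smad7 (20.7). AP-1 and immediate early genes had 6 of 11 (54.5%), namely Junb (49.8 at 1282 bp), Klf6 (35.8), Dusp1 (27.1), Fos (20.8 at 52 bp), Ier5 and Ier3.

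Chromatin regulators had 12 of 27 within 10 kb (44.4%) and 21 (77.8%) within 50 kb, against 29.3% and 66.5% of all genes. Mtf2, Trim28, the histone demethylase gene Kdm1a (52.0 at 7675 bp) and the methyltransferase gene Ehmt2 (43.7 at 5136 bp) led. Chromatin assembly and histone chaperone genes had 2 of 9 (22.2%), Npm1 (21.5) and Rbbp4 (19.2), and 3 of 9 (33.3%) within 50 kb against 66.5% of all genes. Cell cycle genes had 7 of 22 (31.8%), led by Rb1 (31.7), Mcm3 (31.5 at 160 bp), Trp53 (26.3) and Mdm2 (20.8). In the Sox family Sox11 (27.5) and Sox4 (20.1) had one, of 6 genes in the table. Neural lineage genes had 0 of 4, macrophage and blood genes 1 of 3 (Cd68, 15.4), endothelial genes 1 of 3 (Tek), and trophectoderm and primitive endoderm genes 2 of 3, Lama1 (102.0 at 3157 bp) and Sparc. Of muscle genes 0 of 10 were in the table. The lists were chosen with earlier results of these data known, and a share of a short list moves by much with 1 gene, so nothing particular to a list is drawn from these counts.

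**Figure D5:**
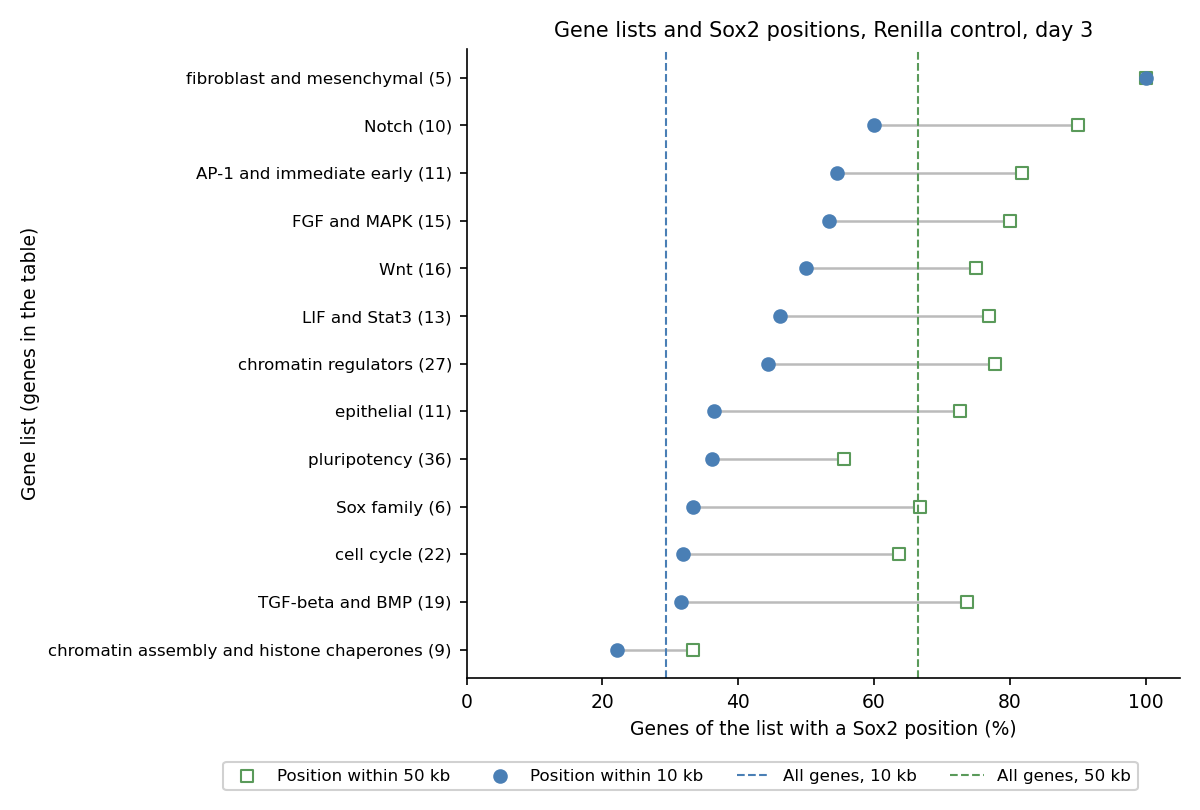
Percent of the genes of each list, among those in the table (number in brackets, lists of at least 5 genes), with a Sox2 position within 10 kb (filled circles) and within 50 kb (open squares) of a start site. Dashed lines give the share of all 5154 genes at the same distances (29.3% and 66.5%); pluripotency genes stand at 36.1% and 55.6% and Notch genes at 60.0% and 90%.

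A position within 1 kb of a start site was found for 550 genes (10.7%), and a position within 500 bp of an assigned enhancer for 566 (11%). Both held for 71 genes, which is 12.9% of the former and 12.5% of the latter. These shares are close to those of all genes, 11% with such an enhancer and 10.7% with such a promoter. The genes with most such enhancers were Srgap3, with 4 of its 11, and Tead1, with 4 of its 36. Pik3r1, the regulatory subunit gene of PI3-kinase, had 3 of 7 and the ephrin receptor gene Epha4 3 of 15. At enhancers the best-scored positions were those of Rims2 (297.0), Mreg (169.5), Nedd4 (145.2) and one assigned to Dusp14 and Tada2a (133.6).

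Sono-seq of the same control cells gave a second readout that the position list did not use. It is deposited as 1 value per region for Renilla, although 3 libraries are labelled, so it has no spread over samples. For the 457 enhancers that had a Sox2 position at most 500 bp away (3.20% of 14265) the median value was 0.142 (interquartile range 0.125 to 0.163), and at the others 0.137 (0.119 to 0.155). The ranges overlapped almost wholly. Enhancers whose nearest position was 500 bp to 10 kb away had nearly the same level, with a median of 0.141, so the difference is not particular to enhancers with a position at them. The share of enhancers with a position was 5.89% (interval 4.72 to 7.24%) among the 10% of enhancers with the highest values and 2.24% (1.54 to 3.15%) among the 10% with the lowest, and at most 3.99% in any step of 10% between them. At promoters the medians were 0.143 with a position (420 of 5513, 7.62%) and 0.143 without, and the share with a position was 6.34% among the highest 10% and 7.79% among the lowest. Within the regions that had a position the value did not follow the score, with Spearman correlations of -0.0548 over 457 enhancers and -0.015 over 420 promoters.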

How the data were processed

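Sox2 ChIP-seq of the Renilla control at day 3 was used as deposited, as the list of binding positions of 1 immunoprecipitate against 1 input. The build is mm9 per the submitters' processing notes, which also name BWA 0.7.8 and Bowtie but not what each was used for, and the caller is not given in the sources used. Each position comes, per the file headers, with the authors' score, its E-value and q-value (false discovery rate), an enrichment ratio of immunoprecipitate over input and the lower bound of that ratio, another value whose confidence level is not stated. The authors' Sono-seq values per region are treated as a score, because their unit is not stated.

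Distances were computed to the start sites and enhancers of the authors' deposited Sono-seq table with Python 3.11.15, numpy 2.4.6, pandas 2.3.3 and scipy 1.17.1, and the code was tested on simulated positions. In 136 rows a date stood in place of the symbol, which was looked up by RefSeq transcript, and 5411 of 5510 transcripts were matched. A region had a position if one lay within 500 bp, and a counterpart was a position of another list within 200 bp. Density per Mb of a distance band divides by the length of sequence in that band, with overlaps counted once. Intervals of shares are Clopper-Pearson and those of counts Poisson, at 95%, and cover counting error only.

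The members and the gene lists were chosen with earlier results of these data known. Named genes are those nearest to the 10 best-scored positions, the 10 genes with the best-scored position within 10 kb, those with most positions within 10 and 50 kb, those of the 5 largest clusters, the best promoter positions, the members of the pluripotency, fibroblast and epithelial lists, up to 4 leading members of each other list, and the 5 highest and 5 lowest enrichments. Other genes were named after their values were seen. Some genes counted in the lists are not reported here by name. Alternatives were a higher score, a lower bound of at least 2, a false discovery rate of at most 0.001, joined positions, no sex chromosomes, and other distances. The Chaf1a Sox2 lists were used only for their number of positions and for counterparts. The RNA-seq, ATAC-seq and H3K9me3 samples were not analysed here, so knockdown and cell identity were not checked.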

Additional observations from a re-analysis of the deposited data

How the results depend on the processing

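No paired analysis was possible because the list comes from 1 immunoprecipitate and 1 input and the Sono-seq table gives 1 value per condition. Of 88 recomputed values 57 were within the limit set for a move (1.5 times for a count, the counting interval for a share, the error for a difference), 31 moved and 0 changed sign beyond their error. These limits are wide for counts and short lists. Keeping scores at or above the median left 8841 positions, 19.6% with a neighbour within 10 kb, 115 clusters of 3 or more, 8.44% within 10 kb of a start site, 784 genes within 10 kb and 2253 within 50 kb. A lower bound of at least 2 left 11545 positions, 25.3% with a neighbour and 259 clusters, and 1020 genes within 10 kb and 2703 within 50 kb in place of 1509 and 3427. A linking distance of 5, 20 or 50 kb gave 22.2, 47.1 or 70.1% with a neighbour and 294, 1070 or 1981 clusters. The share near a start site was 4.16% at 2 kb, 6.32% at 5 kb and 26.1% at 50 kb, and the share near an enhancer 1.23% at 200 bp, 4.57% at 1000 bp and 7.33% at 2000 bp. Genes with a position within 2 kb numbered 734, and within 100 kb 4390. Counts fall with fewer positions, and shares rise with distance, by construction. The lower share near start sites at or above the median score, 8.44% against 9.38% of all positions, does not follow by construction. It did not extend to the 100 best scores, of which 13 lay within 10 kb of a start site. With the lower bound in place of the enrichment the promoter difference was -0.388 instead of -1.09. AP-1 and immediate early genes went from 54.5% at 10 kb to 81.8% at 50 kb, while all genes went from 29.3% to 66.5%. The limit of 0.001 on the false discovery rate removed no position, and joining within 200 bp or leaving out X and Y moved no result beyond its error. The Sono-seq difference at promoters lay between -0.00198 and 0.000947 under the alternatives, around a main value of 0.000161. The unknown depth limits what a missing position means.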
